A study of Mus musculus with 9 samples.

Results

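F10, F2rl2 and Serpine2 encode 3 proteins around thrombin, and they were taken by name from a table of 2402 genes measured in sorted mouse bone marrow cells. All 3 had a column in the table. Thrombin is the protease that cuts fibrinogen into fibrin and that activates platelets, the cell fragments released by megakaryocytes. Factor X, the product of F10, is a vitamin K-dependent zymogen best known as a liver protein. Once activated, it converts prothrombin to thrombin together with factor V. F2rl2 encodes protease-activated receptor 3 (PAR3), which in mouse platelets helps thrombin to cleave its relative PAR4. Serpine2 encodes protease nexin-1, a serpin that traps thrombin, urokinase and plasmin and is carried in platelet granules.

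The study compared megakaryocyte progenitors (MkP) that reach that stage along different routes in old age. The labels describe 4 groups of male C57BL/6 mice that carried a Flt3-cre transgene and the mTmG reporter (FlkSwitch mice): old Tom+ MkP, old GFP+ MkP and old Tom+ haematopoietic stem cells (HSC), each with 2 samples from mice of 18 to 20 months, and young GFP+ MkP with 3 samples from mice of 3 months. A second label gives 20 months for the old mice. In this reporter a cell is red (Tom+) unless it or an ancestor has made Cre from the Flt3 promoter, after which it is green (GFP+). MkP were gated as Lin-, cKit+, Sca1-, CD150+ and CD41+, and HSC as Lin-, cKit+, CD150+ and Flk2-, with the Sca marker written Sca+- in the labels. The labels do not say whether a sample is 1 mouse or a pool.

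The 9 rows of the table have no names. No library could be tied to a sample, so old and young, Tom+ and GFP+, and MkP and HSC cells were not compared, and no value below has a group, a replicate error or a p-value. Libraries are numbered 1 to 9 by row, which is a name and not an order. The values are normalized counts, which are reads multiplied by 1 factor per library. Intervals are exact 95% intervals of the reads and cover counting error only. Summed over the measured genes, depth ran from 1790670 reads in library 3 to 4373460 in library 9.

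Libraries 3 and 4 stood apart from the rest. They were the 2 with at least 1000 normalized counts of Ly6a, the Sca1 antigen, at 4256 and 5772, and library 9 came next with 187. The 8 measured megakaryocyte markers summed to 78650 to 150345 in the other 7 libraries, against 3250 in library 3 and 9022 in library 4. All 8 were lowest in those 2 libraries, an order shared by 41.0% of the 2341 genes compared below. The 8 measured stem cell markers, Ly6a among them, summed to between 789 and 3171 in the other 7 libraries, against 20646 and 15794, and all 8 were highest there. Ly6a had already set these 2 libraries apart, so its part in that sum and count was fixed beforehand. The share of all genes highest in libraries 3 and 4 was not computed. These values describe the libraries. They do not assign a library to a sorted group.

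Windows around the annotated starts of the 3 genes are shown for 2 reasons. All 3 were lowest in libraries 3 and 4, an order shared by 41.0% of the 2341 genes compared below. Gata1, the gene of a transcription factor of megakaryocytes and red cells, was among the genes most like F10 and F2rl2 over the 9 libraries. Without libraries 3 and 4, Gata1 was not among them. Gata1 was not among the genes most like Serpine2. Whether its protein acts on the 3 genes was not tested. Each window holds 250 bases before and 50 after the start of the gene in RefSeq (GRCm38.p6, the build also called mm10), printed 5′ to 3′ on the strand of the gene. Capitals mark the letters GATAA, the core bound by GATA factors, or TTATC, the same core on the other strand. The F10 window lies on chromosome 8 from 13037058 to 13037357 on the plus strand, the F2rl2 window on chromosome 13 from 95696670 to 95696969 on the plus strand, and the Serpine2 window on chromosome 1 from 79858616 to 79858915 on the minus strand.
F10: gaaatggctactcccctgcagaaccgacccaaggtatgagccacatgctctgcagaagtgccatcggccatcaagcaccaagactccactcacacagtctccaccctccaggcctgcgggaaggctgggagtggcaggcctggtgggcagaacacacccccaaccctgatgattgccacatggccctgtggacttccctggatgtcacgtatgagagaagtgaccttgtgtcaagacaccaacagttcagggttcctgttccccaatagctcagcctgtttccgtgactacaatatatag
F2rl2: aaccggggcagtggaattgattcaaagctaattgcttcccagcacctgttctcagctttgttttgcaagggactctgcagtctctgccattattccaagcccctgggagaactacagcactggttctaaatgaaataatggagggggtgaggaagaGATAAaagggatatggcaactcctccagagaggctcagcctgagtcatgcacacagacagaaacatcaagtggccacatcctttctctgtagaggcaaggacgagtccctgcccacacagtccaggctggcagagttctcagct
Serpine2: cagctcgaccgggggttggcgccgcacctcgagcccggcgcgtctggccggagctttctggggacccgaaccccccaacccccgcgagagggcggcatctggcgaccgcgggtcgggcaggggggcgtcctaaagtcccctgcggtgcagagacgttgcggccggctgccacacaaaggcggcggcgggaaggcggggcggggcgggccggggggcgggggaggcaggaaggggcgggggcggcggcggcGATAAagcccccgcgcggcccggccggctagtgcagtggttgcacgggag

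The F2rl2 window held 1 GATAA, at position 157 counted from the 5′ end. The Serpine2 window held 1 as well, at the first base of the RefSeq transcript. The F10 window held 0 copies. Positions depend on the annotation. In GENCODE M21 the Serpine2 gene, on the minus strand, reaches to 79861180, beyond the 5′ end of this window. The F2rl2 start also differs, at 95696853 in GENCODE M21, inside the window but before the RefSeq start. Over the windows of 27025 genes, 25.8% held GATAA or TTATC. The letters GGAAG or CTTCC, used here for ETS factors, occurred at 2 positions in each of the 3 windows and in 71.1% of all windows. TGTGG or CCACA, used for RUNX factors, occurred at 3, 2 and 1 positions in the F10, F2rl2 and Serpine2 windows, and in 56.1% of all windows. The windows also differed in base composition, with 55.7% G and C in F10, 50.7% in F2rl2 and 77.7% in Serpine2, beside a median of 52.7% over all windows.

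F10, the factor X gene, had 625.04 normalized counts in library 1, 575 in library 2, 4.72 in library 3, 8.01 in library 4, 1202 in library 5, 827 in library 6, 1369 in library 7, 558 in library 8 and 483 in library 9. Libraries 5 and 7 were the highest and libraries 3 and 4 the lowest, with no value between 8.01 and 483. The low values rest on 4 reads in library 3 and 7 reads in library 4, so their intervals were wide, from 1.29 to 12.1 and from 3.22 to 16.5 normalized counts. Both libraries therefore held F10 reads, but their order could not be told apart at this depth, at a ratio of 1.70 (interval 0.432 to 7.91). The highest library had 290.2 times the value of the lowest (113 to 1067). Library 9, the lowest of the other 7, still had 60.3 times the value of library 4 (29.1 to 150.6). Within those 7 libraries the level varied 2.83-fold (2.56 to 3.14). Libraries 1 and 2 and libraries 2 and 8 were neighbours whose ratios did not differ from 1 beyond counting error.

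F10 spans 13037308 to 13056676 on chromosome 8, plus strand, in GENCODE M21, with no annotated gene overlapping it. Its neighbours F7 and Proz, which encode factor VII and protein Z, lie 1499 and 4238 bases away, and neither they nor the other 3 protein-coding genes within 100 kb are among the genes analysed here. The 7 fixed hepatocyte markers were not analysed either, so a liver source of the F10 reads was not tested.

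F2rl2, the PAR3 gene, had 6746 normalized counts in library 1, 3254 in library 2, 14.2 in library 3, 49.2 in library 4, 6726 in library 5, 6709 in library 6, 5381 in library 7, 3236 in library 8 and 1985 in library 9. Libraries 1, 5 and 6 shared the top level, since the ratios of neighbours in that order were 1.00 with intervals that held 1. Libraries 2 and 8 were also alike, at a ratio of 1.01 (0.947 to 1.07). The highest library had 477 times the value of the lowest (273 to 923), and without library 3 the range was 137-fold. The interval lay within that of F10, so the ranges of these 2 genes could not be ranked. Library 3 had 12 reads and library 4 had 43, and here the pair did differ, at 3.48-fold in library 4 over library 3 (1.80 to 7.24). The other 7 libraries varied 3.40-fold (3.24 to 3.57), and the lowest of them had 40.3 times the value of library 4 (29.9 to 55.9).

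F2rl2 lies on chromosome 13 from 95696853 to 95702739 on the plus strand, inside the span of Iqgap2, a gene of the opposite strand. The annotated exons of the pair share 0 bases. F2r, which encodes PAR1, the main thrombin receptor of human platelets, lies 78.4 kb away and is described with the other receptors.

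Serpine2, the protease nexin-1 gene, had 22652 normalized counts in library 1, 16934 in library 2, 149.8 in library 3, 233 in library 4, 27829 in library 5, 27412 in library 6, 31054 in library 7, 6755 in library 8 and 4493 in library 9. Libraries 1, 2, 5, 6 and 7 lay between 16934 and 31054, libraries 8 and 9 below them, and libraries 3 and 4 lowest. Of the 8 pairs of neighbours in the order, 7 differed beyond counting error and libraries 5 and 6 did not (1.02, interval 0.996 to 1.03). Library 2 had 2.51 times the value of library 8 (2.43 to 2.59). The highest library had 207 times the value of the lowest (174 to 248.8), and the 7 libraries other than 3 and 4 varied 6.91-fold (6.72 to 7.11). With 127 reads in library 3 and 204 in library 4, Serpine2 was the best counted member there, at 1.56-fold in library 4 over library 3 (1.24 to 1.96). The gene lies on chromosome 1 from 79794197 to 79861180, minus strand, and no annotated gene overlaps it.

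**Figure D1:**
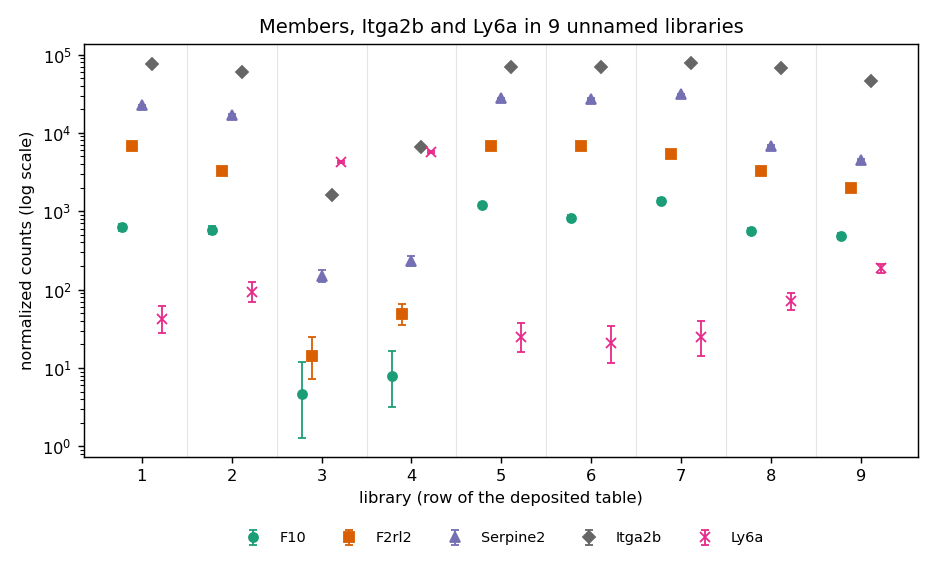
Normalized counts (log axis) of F10, F2rl2 and Serpine2 with Itga2b (CD41) and Ly6a (Sca1) in each of the 9 unnamed libraries, with exact 95% counting intervals as bars. The 3 genes and Itga2b are lowest in libraries 3 and 4, where Ly6a is at 4256 and 5772, and Serpine2 is also lower in libraries 8 and 9 (6755 and 4493) than in libraries 1, 2, 5, 6 and 7.

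All 3 genes had libraries 3 and 4 as their 2 lowest, an order shared by 41.0% of the 2341 genes that reached 10 normalized counts in at least 2 libraries. All 3 also passed a 4-fold range over the 9 libraries, which 66.4% of those genes did, with a median of 6.16-fold. Among the 7 libraries other than 3 and 4, a 4-fold range was found for 20.8% of 2133 genes, and of the 3 genes Serpine2 passed it. The genes were chosen with these ranges known, so the counts describe them and test nothing. In cells sorted in bulk, fewer cells of a type and less RNA per cell cannot be told apart.

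Set per kilobase of annotated exons, Serpine2 had a median of 2043 normalized counts per kb over the libraries, F2rl2 1301 and F10 211. Itga2b stood at 12524 per kb and F2r at 1065. F2rl2 exceeded Serpine2 per kb in library 8, at 1294 against 815, and in library 9, at 793 against 542, whereas in library 7 Serpine2 had 3747 per kb and F2rl2 2151. The Serpine2 length of 8287 bases joins the exons of all its transcripts, and a shorter transcript in use would raise its level per kb.

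Ratios of reads within a library do not depend on how the libraries were scaled. For each read of F10 there were 9.30 to 36.2 reads of Serpine2 and 3.00 to 10.8 of F2rl2 in the 9 libraries, ranges of 3.90-fold and 3.60-fold, while each gene moved 207-fold or more. Serpine2 per F2rl2 ranged 5.07-fold. Serpine2 per F10 was 22.7 to 36.2 in libraries 1, 2, 5, 6 and 7. It was 31.8 (12.1 to 118) in library 3 and 29.1 (13.9 to 73.4) in library 4, on 4 and 7 F10 reads. It was 12.1 (11.1 to 13.3) in library 8, which the interval of library 3 overlapped, and 9.30 (8.58 to 10.1) in library 9. Serpine2 per F2rl2 was also lowest in libraries 8 and 9, at 2.09 and 2.26, against 3.36 to 5.77 in libraries 1, 2, 5, 6 and 7. It was 10.6 (5.85 to 21.02) in library 3 and 4.74 (3.40 to 6.76) in library 4. F2rl2 per F10 was highest in library 1, at 10.8 (9.71 to 12.02), and 3.93 (3.65 to 4.23) in library 7. Its lowest value, 3.00 in library 3, had an interval of 0.909 to 12.8, which held the values of all other libraries.

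Set against Itga2b, the CD41 gene used in the MkP gate, F10 and F2rl2 were again lowest in libraries 3 and 4, with smaller ranges than by level (14.4-fold and 12.99-fold over the 9 libraries). F10 had 8.17 to 17.6 reads per 1000 Itga2b reads in the other 7 libraries, against 2.92 (0.794 to 7.49) in library 3 and 1.22 (0.492 to 2.52) in library 4. F2rl2 had 43.3 to 97.7 per 1000, against 8.76 (4.51 to 15.4) and 7.52 (5.44 to 10.1). The F10 interval of library 3 met those of library 1 (7.40 to 9.08) and library 8 (7.48 to 8.89). How many of all genes split the libraries in this way per Itga2b read was not computed. Serpine2 had 279 to 404 per 1000 in libraries 1, 2, 5, 6 and 7, 98.9 and 98.1 in libraries 8 and 9, 92.7 (76.7 to 111) in library 3 and 35.7 (30.9 to 41.0) in library 4. On this measure the Serpine2 interval of library 3 held the values of libraries 8 and 9, so the libraries no longer split in the same way as by level.

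**Figure D2:**
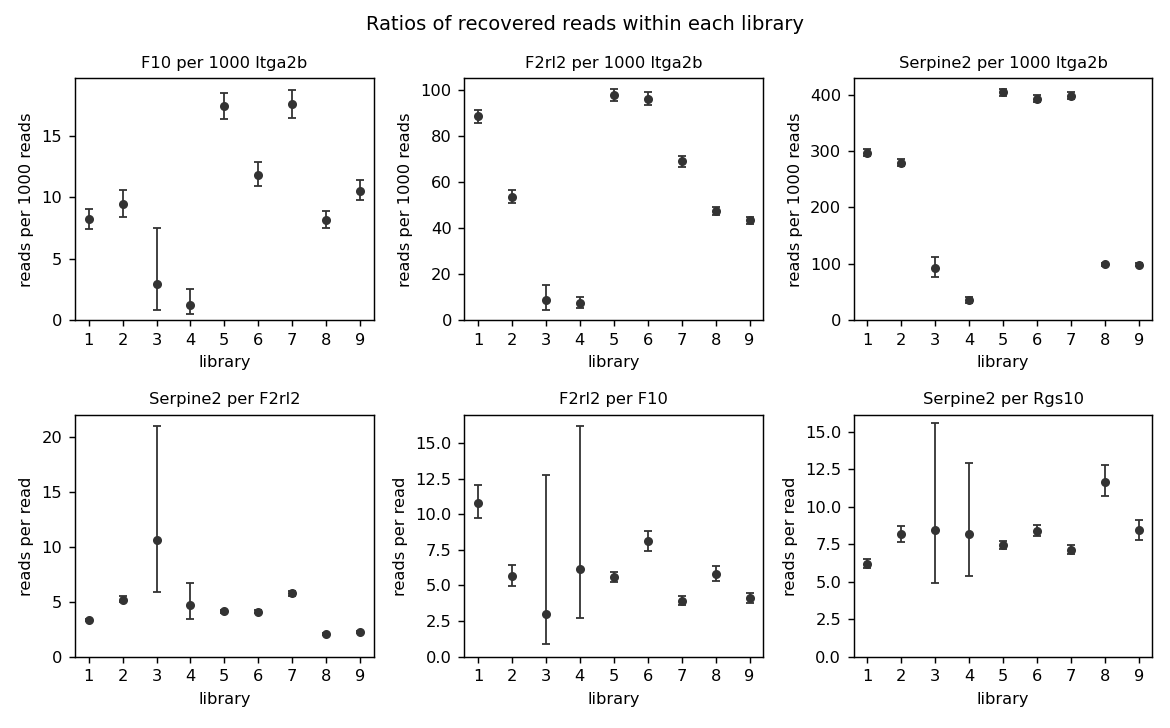
Ratios of reads within each of the 9 libraries, with exact 95% intervals as bars and axes from 0. The upper panels give F10, F2rl2 and Serpine2 reads per 1000 Itga2b reads, and the lower panels Serpine2 per F2rl2, F2rl2 per F10 and Serpine2 per Rgs10. The last stays between 6.21 and 11.7, and Rgs10 was picked for its likeness to Serpine2 over these libraries.

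Of the 8 listed genes of thrombin receptors and of the GPIb-IX-V complex, 6 were measured, F2rl2 included. Gp1bb and Gp9 are among them as subunits of that complex. All 6 passed the 4-fold range, beside 66.4% of all genes, with a median of 49.8-fold beside 6.16-fold. All 6 were lowest in libraries 3 and 4, beside 41.0% of all genes. F2r had 7013, 3554, 340, 217, 3770, 6258, 2722, 4315 and 2315 normalized counts in libraries 1 to 9, a 32.3-fold range. Its low libraries thus kept more of the top level than those of F2rl2 did. For each F2r read there were 0.750 to 1.98 F2rl2 reads in the 7 libraries other than 3 and 4, against 0.0417 (0.0213 to 0.0739) in library 3 and 0.226 (0.159 to 0.317) in library 4. Against Itga2b, F2r had 210.2 reads per 1000 in library 3, the highest of the 9, and 33.2 in library 4, the lowest.

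The 4 subunits of the GPIb-IX-V complex, the von Willebrand factor receptor, ranged from 9.37-fold to 92.0-fold. Gp5, a subunit that thrombin cleaves, had 4245 to 14639 normalized counts in the 7 libraries and 189 and 259 in libraries 3 and 4. Gp1ba, which binds thrombin, had 327 to 730 against 29.5 and 49.2. Gp1bb had 1708 to 12267, with library 1 lowest among the 7, against 133 and 252, and Gp9 had 1592 to 3237 against 346 and 482. The ranges of these 4 were smaller than those of the 3 thrombin genes. The 4 subunits also stand on the megakaryocyte marker list, so they are not separate from its sums.

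Of the 20 listed genes of thrombin generation, 5 were measured, F10 included. F5, the gene of the factor V cofactor, stayed at 0 to 11.8 normalized counts and did not reach the level of 10 in 2 libraries. Gas6, a vitamin K-dependent ligand of TAM receptors, ran the other way from F10: it had 458 and 67.5 in libraries 3 and 4 and 2.17 to 23.6 in the other 7. P4hb, a protein disulfide isomerase, had 12040 to 20287 in the 7 libraries and 6423 and 8725 in libraries 3 and 4, and Mcfd2, which helps to export factors V and VIII from the endoplasmic reticulum, had 605 to 1100 against 1480 and 1850. Of the 4 that passed the expression filter, F10 and Gas6 had a 4-fold range, beside 66.4% of all genes. F10 and P4hb were lowest in libraries 3 and 4, beside 41.0% of all genes.

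Of the 15 listed inhibitors and protein C pathway genes, Serpine2 and Procr were measured. Procr, the endothelial protein C receptor, is a marker of stem cells as well as a cofactor of an anticoagulant protease. It is also on the stem cell marker list here. It had 16.3 to 97.5 normalized counts in the 7 libraries, against 5639 in library 3 and 3329 in library 4, the reverse of Serpine2. None of the 10 listed fibrinolysis genes was analysed here.

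Of 51 listed genes that act downstream of thrombin receptors, 13 were measured, 9 passed the 4-fold range (median 8.90-fold), near the 66.4% of all genes. Libraries 3 and 4 were lowest for 8 of the 13, beside 41.0% of all genes. They were highest for 4, for which no share of all genes was computed. Rgs10, which shuts off G protein signals, had the widest ratio, 246-fold (149 to 440), with 3649, 2073, 17.7, 28.6, 3725, 3270, 4354, 579 and 533 normalized counts in libraries 1 to 9. Like Serpine2, it was low in libraries 8 and 9 beside libraries 3 and 4. Arrb2, the beta-arrestin 2 gene, had 2450 to 5557 in the 7 libraries against 284 and 469. P2ry1, an ADP receptor of platelets, had 192 to 470 against 15.3 and 25.2. Rap1b, the small GTPase that acts on integrins, had 36599 to 68694 against 5628 and 6624, and its activator Rasgrp2 had 2034 to 3594 against 484 and 440.5.

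Other signalling genes varied less or in the other direction. Fermt3, an integrin activator, had 25004 to 34141 normalized counts in the 7 libraries against 9269 and 11817, and Rap1a had 1491 to 2354 against 1132 and 1034. Arhgef12, an exchange factor for RhoA, had 3.93 to 31.1 against 79.0 and 36.6. Over the 101 listed genes other than the 3, 23 were measured, 22 passed the expression filter and 16 of these had a 4-fold range, with a median of 10.8-fold, beside 66.4% of all genes. Of these 22, 14 were lowest in libraries 3 and 4, beside 41.0% of all genes. In the 7 libraries 5 of the 22 had a 4-fold range, beside 20.8% of all genes, with a median of 2.41-fold beside 2.32-fold. The shares with a 4-fold range were thus near those of all measured genes, and how those genes were selected is not stated.

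**Figure D3:**
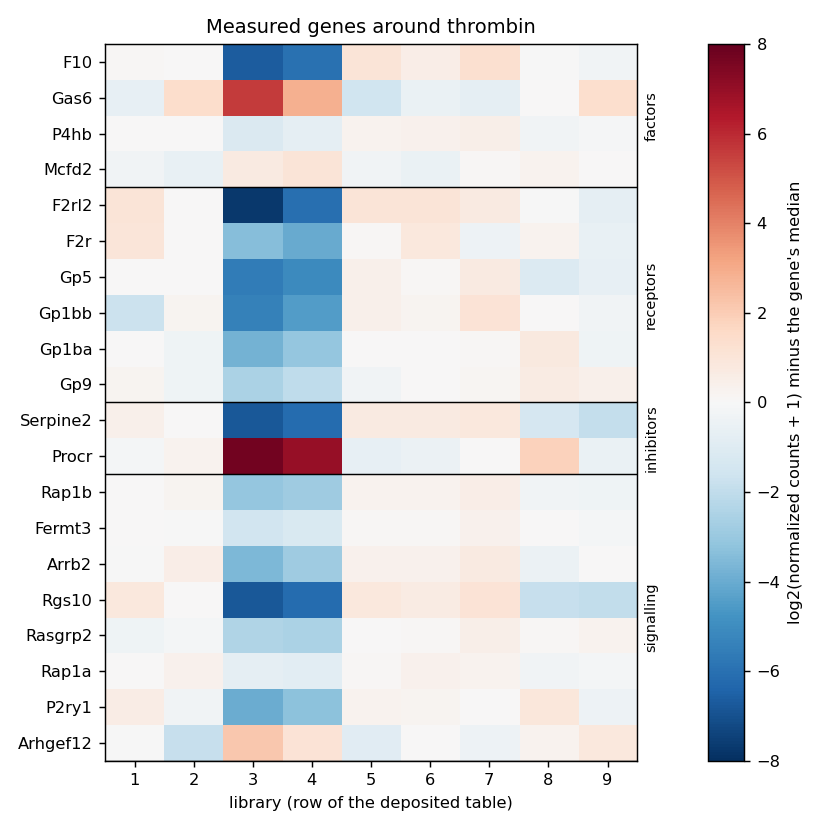
Colour shows log2 of normalized counts plus 1 minus the median of the gene over the 9 libraries, for measured genes around thrombin in columns of libraries 1 to 9. F10, F2rl2, Serpine2 and Rgs10 are the darkest blue in libraries 3 and 4, and Gas6 and Procr are red there (458 and 5639 normalized counts in library 3).

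Libraries 8 and 9, where Serpine2 and Rgs10 were low, also differed from the other 5 in markers. Hoxb5, a stem cell transcription factor gene, had 195.0 and 111.5 normalized counts there, 400 and 223 in libraries 3 and 4, and at most 11.8 elsewhere. Ndn, an imprinted growth suppressor of stem cells, had 804 and 718 there, against at most 100.1 in libraries 1, 2, 5, 6 and 7. Kit had 198 and 67.4 there and 12.3 to 44.8 in those 5. The stem cell markers Hlf, Tie1 and Mllt3 were also higher there than in those 5. Ly6a was above those 5 in library 9 only, and Procr and Mecom in library 8 only. Megakaryocyte markers summed to 102687 and 78650 in libraries 8 and 9 and to 118562 or more in the other 5, but the members differed. Gp5, Pf4 and Treml1 were lower in both libraries, and Gp1bb lay within the range of the other 5. Gp9 went the other way, at 3237 and 2699 against 1592 to 2313. Itga2b and Gp1ba were below the other 5 in library 9 only, and Ppbp in library 8 only. Gp1ba was highest in library 8, at 730. The part of these markers in the Serpine2 levels was not tested.

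Markers of other cell types also moved between libraries. Granulocyte and monocyte markers (4 of 8 measured) summed to 366 to 2142 in the 7 libraries, against 12916 and 12329 in libraries 3 and 4. Prtn3 made up most of that, at 12248 and 11466, and 2 of the 4 were lower there than elsewhere, with Cebpa at 0 in libraries 3 and 4 and Csf1r at 0 in library 3. Endothelial markers (2 of 6 measured) summed to 4.20 to 48.2, against 1213 and 2110, and Emcn was at 0 in library 6. Erythroid markers (4 of 9 measured, Gata1 included) summed to 11093 to 15447, against 324 and 474. Lymphoid markers (4 of 7 measured) summed to 2243 to 27189, against 731 and 1185. Nkg7 made up most of that sum in the 7 libraries, and Klrb1c had 493.05 and 469.07 in libraries 3 and 4 and at most 68.2 elsewhere. The mast cell marker Fcer1a reached 103 in library 1 and was at 0 in libraries 3, 5 and 7, and the macrophage marker Cd5l did not exceed 39.8 and was at 0 in libraries 3 and 4. Their part in the values of the 3 genes was not tested.

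The genes whose pattern over the 9 libraries was most like each of the 3 were found by the root mean square difference of log2 values, each gene centred on its own median. For F10 these were Ckap2l, a mitotic spindle gene, at 0.41, Treml1, a platelet granule receptor gene, at 0.53, F2rl2 at 0.56, Gata1 at 0.62 and Gp5 at 0.68. For F2rl2 they were F10 at 0.56, Ckap2l at 0.58, Mfsd2b, a sphingosine-1-phosphate exporter gene, at 0.64, Gata1 at 0.65 and Serpine2 at 0.73. The median difference over 2190 genes was 3.37 from F10 and 3.67 from F2rl2. These genes share libraries 3 and 4 as their lowest. Without those 2 libraries 0 of the 5 genes stayed on the list of F10 and 0 on that of F2rl2. The genes then closest were Prodh for F10, at 0.14, and Rsu1 for F2rl2, at 0.29.

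Over the 9 libraries Rgs10 differed from Serpine2 by 0.23 and Mrvi1, the gene of a platelet protein that acts in cyclic GMP signalling, by 0.25, followed by Slc35d3, which is needed for platelet dense granules in mice, at 0.38, Ubash3a at 0.52 and the potassium channel gene Kcnj5 at 0.54. Mrvi1 had 18.8 to 159 normalized counts in the 7 libraries and 0 in libraries 3 and 4, and Kcnj5 was at 0 in library 3, so the pseudocount of 1 sets part of their likeness. For each Rgs10 read there were 6.21 to 11.7 Serpine2 reads, a 1.88-fold range over 9 libraries in which each of the genes moved more than 200-fold. Rgs10 was picked for its likeness to Serpine2 over these same libraries, so a narrow ratio follows from the choice. Without libraries 3 and 4, 4 of the 5 genes stayed, with Mrvi1 at 0.25, Rgs10 at 0.34, Slc35d3 at 0.37 and Kcnj5 at 0.43. Slc35d3 had 329 and 356 normalized counts in libraries 8 and 9 against 979 to 2231 in libraries 1, 2, 5, 6 and 7, the same split as Serpine2.

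**Figure D4:**
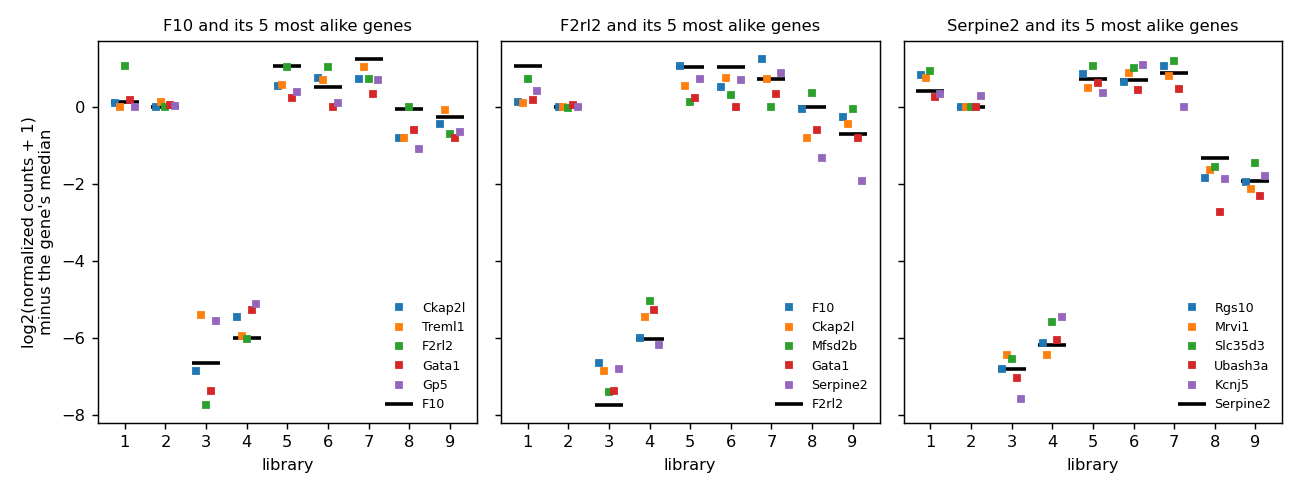
Log2 of normalized counts plus 1, centred on the median of each gene, for F10, F2rl2 and Serpine2 (black bars) and the 5 genes most like each of them (coloured squares) in the 9 libraries. All are lowest in libraries 3 and 4, and Serpine2 and the 5 genes around it are also below their medians in libraries 8 and 9, as are F10 and F2rl2 by less.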

How the data were processed

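The members and gene lists were chosen with earlier results of these data known. Per the labels' protocols, RNA of sorted bone marrow cells was extracted with Trizol and made into libraries with a NEBNext Ultra kit. The submitters' processing notes name mm10, Bowtie2, STAR and DESeq without roles or versions. How reads were counted, with which annotation and strand setting, and why these genes were kept, is not stated by the labels or the table.

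The authors deposited normalized counts, which are a signal, in 1 table whose 9 rows carry no names and whose columns are genes. Rows were not assigned to samples, so limma tests between groups were not run. Within each row the values were whole multiples of 1 step (tolerance 0.1 reads) for 100% of values, between 0.724 and 1.96 normalized counts per read, which gave back the reads. A count of 0 allows up to 3 reads. Exact Poisson intervals were used for levels and exact conditional binomial intervals for ratios, at 95% (scipy 1.17.1, numpy 2.4.6, pandas 2.3.3).

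Ranges of lists used log2 of the value plus 1, over genes with at least 10 in at least 2 libraries. Named genes were the 3, all measured genes of the thrombin, inhibitor and fibrinolysis lists, the signalling genes with the 6 highest medians or the 4 widest ranges (8 in all), the sort markers and the 5 most alike genes of each. Coordinates and exon lengths are from GENCODE M21, and windows from RefSeq. The reads and intervals were tested on simulated data. Alternatives were other scalings, pseudocounts, no filter and leaving out libraries.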

Additional observations from a re-analysis of the deposited data

Results flagged for a closer look

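Of 12 quantities given by library, 3 had an end value whose gap to the next, divided by the range, passed the critical value of 0.493 for 9 values. Chance alone flags about 1 in 20, and the 9 libraries mix cell types and ages. Serpine2 per F2rl2 was highest in library 3, at 10.6, where F2rl2 had 12 reads and the interval (5.85 to 21.02) overlapped that of library 7 (5.57 to 5.98). Serpine2 per Rgs10 was highest in library 8, at 11.7 (10.7 to 12.8). F2r per 1000 Itga2b reads was highest in library 3, at 210.2 (184 to 239), where Itga2b had 1370 reads.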

How the results depend on the processing

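Leaving out libraries 3 and 4 took the ranges to 2.83-fold for F10, 3.40-fold for F2rl2 and 6.91-fold for Serpine2, the count of listed genes with a 4-fold range to 5 from 16, and the range of Serpine2 per F2rl2 to 2.77-fold from 5.07-fold. Without each library in turn the range lay between 171 and 290.2 for F10, 137 and 477 for F2rl2 and 133 and 207 for Serpine2, each lowest without library 3. The list count then lay between 15 and 16, and the ranges of the ratios between 2.77 and 5.07 for Serpine2 per F2rl2, 2.71 and 3.60 for F2rl2 per F10, and 2.99 and 3.90 for Serpine2 per F10. Scaling to the table total gave 96.5-fold for Serpine2 and median-of-ratios scaling 339-fold. These scalings moved library 3 by 0.80 and -0.62, library 4 by 0.64 and -0.34 and library 7, the highest for Serpine2 as deposited, by -0.41 and 0.09 on the log2 scale against the median shift of the other 7. F10 and F2rl2 stayed within their counting intervals under both scalings (F10 128 and 474, F2rl2 304 and 739). Those intervals are wide, since they rest on 4 F10 reads and 12 F2rl2 reads in library 3. Staying inside them thus does not show less dependence on scaling than for Serpine2. Under both, libraries 3 and 4 stayed the lowest for all 3 genes, a check added after seeing the data, while the highest library became 5 for F10 and 1 for Serpine2 under the table total. The order of the other 7 libraries changed for all 3 genes under the table total. Ratios of neighbours in the order were computed at the deposited scaling only. With a pseudocount of 5, 3 of the 5 genes most like Serpine2 stayed. Over all alternatives run, 14 values moved and 84 did not. Leaving out a library that is neither the highest nor the lowest cannot change a range. Part of the 84 was therefore fixed beforehand, and the tally does not measure robustness. No paired analysis was possible because the rows carry no sample names or replicate numbers. Depth limits F10 most, with 4 and 7 reads in its lowest libraries.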

Other observations

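The table held 6 more genes whose symbols begin with Serpin, taken after the data had been seen. Serpinf1, which encodes pigment epithelium-derived factor, had 19.7 to 233 normalized counts in the 7 libraries other than 3 and 4, against 4184 in library 3 and 1390 in library 4, and among the 7 it was highest in libraries 8 and 9 (233 and 151.4). Serpinb9, an inhibitor of granzyme B, had 39.9 to 57.7 against 230.0 and 136. Serpinb10 had 4.19 to 153.5 against 5.90 and 0, and Serpina3b 5.79 to 81.4 against 2.36 and 3.43, so libraries 3 and 4 were lowest for Serpina3b, while Serpinb10 was lower in library 8 than in library 3. Serpinh1, a collagen chaperone gene, had 0 to 20.97 against 44.8 and 19.5, and Serpini1 2.90 to 14.8 against 28.3 and 13.7.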
